A study of Mus musculus with 21 samples.

Results

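The comparison concerns MM401 against its solvent DMSO in resting cultures of mouse cortex, meaning cultures given water in place of bicuculline. Its members are 5 of the 21 libraries of the series, chosen from the whole-gene count table: replicates 1 and 2 of MM401 with water for 4 h, and replicates 1, 2 and 3 of DMSO with water for 4 h. Replicate 3 of MM401 with water for 4 h was left out because it held 316741 counts, 0.503% of the median of the other 20 libraries. All 5 cultures came from CD1 mice and were at day 17 in vitro. They were preincubated for 30 min with 25 µM MM401 or with DMSO, received water for 4 h, and had 2 mM bromouridine over the last 30 min. The labels give 3 biological replicates of mixed sex per group. The edgeR p-values take their spread from all 20 libraries kept, most of them outside this comparison. With so few libraries per group they measure only the spread between these samples. Whole-gene counts were 53224745, 74898275 and 65133475 in the DMSO libraries and 55471272 and 56024323 in the MM401 libraries. Nothing in the labels says whether MM401 altered H3K4 methylation in these cultures, and the counts do not measure it.

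BrU-seq sequences RNA made during a short pulse of bromouridine, so the reads fall over introns as well as exons and follow polymerases along the gene. MM401 is a peptidomimetic that blocks the binding of MLL1, the H3K4 methyltransferase encoded by Kmt2a, to WDR5, a subunit that MLL1 needs for full activity. H3K4 methylation marks promoters of active genes, and MLL1 has a CxxC domain that binds unmethylated CpG. In cortical cultures neurons are accompanied by astrocytes and a few other glia. Their markers were present as the labelled tissue implies: summed CPM (edgeR's counts per TMM-scaled depth, its CPM values) of 9 pan-neuronal markers was 4838 to 6018 in DMSO and 5670 to 5830 in MM401, and that of 5 tested endothelial markers was 2.97 to 3.65 and 2.91 to 3.81.

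In resting cultures 14 of 16959 tested genes were higher with MM401 and 0 were lower, in a fit on all 20 deep libraries of the series, with a gene called at an edgeR quasi-likelihood p under 0.05 after Benjamini-Hochberg adjustment over all tested genes (0.0826% of genes were called higher). At an unadjusted p under 0.05 there were 2194 genes (6.35% of genes higher, 6.59% lower). In what follows a call is by the edgeR test unless another tool is named. The 14 were Hs3st2, Glis1, Nkain1, Cnih3, Rab3b, Megf11, Sec24d, Tmem163, Ahrr, Clmp, Map6, Gfra2, Camk1g and Tmem40. Their log2 fold changes ran from 0.29 to 0.96, with a median of 0.46, against -0.01 for all tested genes. The call rests on which libraries and tool enter: DESeq2 called 162 genes (105 higher, 57 lower), limma-voom with sample quality weights 2978, and the 5 libraries alone, or all 21 libraries, 0 by the edgeR test (1510 and 1472 genes at an unadjusted p under 0.05).

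The promoters of the 4 called genes with the smallest adjusted p are shown because MLL1 acts at promoters and binds CpG. They are 300 bases each, 250 before and 50 after the RefSeq start, on the gene's own strand in GRCm38.p6 (the build also named mm10), and CG dinucleotides are in capitals. The starts lie within 1 base of those in the count table. Glis1 lies at chr4:107434469-107434768 (plus strand), Hs3st2 at chr7:121392046-121392345 (plus), Cnih3 at chr1:181352378-181352677 (plus) and Nkain1 at chr4:130573987-130574286 (minus).
Glis1: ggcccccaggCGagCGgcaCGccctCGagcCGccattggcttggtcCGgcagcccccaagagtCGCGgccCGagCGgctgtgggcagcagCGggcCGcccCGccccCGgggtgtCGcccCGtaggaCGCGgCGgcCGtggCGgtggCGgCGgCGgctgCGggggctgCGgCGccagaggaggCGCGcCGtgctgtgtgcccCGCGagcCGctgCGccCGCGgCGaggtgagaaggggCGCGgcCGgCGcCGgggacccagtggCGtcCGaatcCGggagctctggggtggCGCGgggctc
Hs3st2: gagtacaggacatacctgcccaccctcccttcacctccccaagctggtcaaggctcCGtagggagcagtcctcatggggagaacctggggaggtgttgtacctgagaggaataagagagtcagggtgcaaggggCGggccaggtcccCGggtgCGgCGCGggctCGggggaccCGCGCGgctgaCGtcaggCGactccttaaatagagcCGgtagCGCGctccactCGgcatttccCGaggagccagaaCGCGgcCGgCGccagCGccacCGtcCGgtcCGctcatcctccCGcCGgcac
Cnih3: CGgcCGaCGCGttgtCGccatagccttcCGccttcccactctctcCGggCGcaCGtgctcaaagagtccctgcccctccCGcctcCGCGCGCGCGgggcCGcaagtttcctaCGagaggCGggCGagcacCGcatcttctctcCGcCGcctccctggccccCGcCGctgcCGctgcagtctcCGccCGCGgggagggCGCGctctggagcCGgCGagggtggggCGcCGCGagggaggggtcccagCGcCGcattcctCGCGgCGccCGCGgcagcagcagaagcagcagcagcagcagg
Nkain1: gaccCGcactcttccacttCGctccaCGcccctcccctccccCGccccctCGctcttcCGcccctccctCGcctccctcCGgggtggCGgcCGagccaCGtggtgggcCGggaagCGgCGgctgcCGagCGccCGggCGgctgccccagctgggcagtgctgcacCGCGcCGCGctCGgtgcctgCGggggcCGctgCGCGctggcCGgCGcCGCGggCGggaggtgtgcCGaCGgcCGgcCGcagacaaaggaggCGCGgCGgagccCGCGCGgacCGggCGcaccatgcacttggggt

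These 4 windows held 47, 27, 42 and 44 CG dinucleotides in the order printed. The median over the 12114 tested genes with a promoter matched in this way was 19, and the windows of Glis1, Hs3st2, Cnih3 and Nkain1 held more than 97.6%, 72.7%, 94.9% and 96.3% of them. Of the 14 called genes 10 were matched, with 1 to 47 CG, and 7 of the 10 held at least 10 CG, against 75% of all matched genes. Camk1g and Tmem40 held 1 each, so the called genes did not share a CpG-rich start. Among genes called without DMSO replicate 1 (described below), 75.5% of the 514 matched higher genes and 75.9% of the 382 matched lower genes held at least 10 CG, against 75% of all matched genes.

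Among the genes of secretory and cell surface function, Hs3st2, a heparan sulfate 3-O-sulfotransferase, had 116, 87.3 and 82.3 CPM in DMSO replicates 1, 2 and 3 and 145 and 166 in MM401. All DMSO libraries lay under both MM401 libraries, and replicate 1 was the highest of the DMSO libraries. The log2 fold change was 0.71 ± 0.10 (SE, n = 2 and 3, edgeR adjusted p = 0.012). Nkain1, a membrane protein that interacts with the sodium pump, had 27.8, 24.9 and 23.6 CPM in DMSO and 33.7 and 38.4 in MM401 (0.50 ± 0.08, edgeR adjusted p = 0.0134). Clmp, an adhesion protein of the immunoglobulin family, had 50.5, 40.8 and 38.2 CPM in DMSO and 55.9 and 62.8 in MM401 (0.46 ± 0.09, edgeR adjusted p = 0.0349). The same order of libraries held there, with DMSO replicate 1 nearest to MM401. Gfra2, a co-receptor for neurturin, had 40, 34.1 and 34 CPM in DMSO and 47.5 and 51.2 in MM401. Megf11, a transmembrane protein with EGF-like repeats, had 56.7, 53.3 and 52.7 CPM in DMSO and 72.8 and 64.7 in MM401. Sec24d, a cargo adaptor of COPII vesicles, had 53.4, 48.9 and 53.2 CPM in DMSO and 60.4 and 75.7 in MM401.

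Among genes of synapses and the cytoskeleton, Cnih3, an auxiliary subunit of AMPA receptors, had 65.8, 56.5 and 54.2 CPM in DMSO and 77.6 and 83.7 in MM401 (0.46 ± 0.07, edgeR adjusted p = 0.0134). Tmem163, a zinc transporter found on synaptic vesicles, had 40.7, 30.8 and 28 CPM in DMSO and 49.8 and 55.7 in MM401 (0.67 ± 0.12, edgeR adjusted p = 0.0349). In both genes DMSO replicate 1 lay between the other DMSO libraries and MM401. Rab3b, a small GTPase of synaptic vesicles, had 15.2, 14.8 and 14.5 CPM in DMSO and 19.3 and 20.4 in MM401. It overlaps 8030443G20Rik on the opposite strand, and since the use of strand in counting is not given in the sources used here, its reads cannot be told from those of that gene. The same limit holds for Sec16b, Tspear, Tiparp, Arpp21, Srebf1 and Slc1a2, described below, each of which overlaps a gene on the opposite strand. Tspear and Celf2 also overlap genes on their own strand. Map6, which stabilises microtubules, had 95, 85.9 and 91.2 CPM in DMSO and 107 and 115 in MM401, and Camk1g, a calcium/calmodulin-dependent kinase, had 36.2, 37.2 and 34.7 and 46 and 45.1.

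Of the remaining called genes, Glis1, a zinc finger transcription factor, had 23.9, 18.7 and 17.5 CPM in DMSO and 36 and 34.5 in MM401 (0.82 ± 0.12, edgeR adjusted p = 0.012). Ahrr, the repressor of the aryl hydrocarbon receptor and itself a target of that receptor, had 1.47, 1.54 and 1.35 CPM in DMSO and 2.89 and 2.44 in MM401 (0.87 ± 0.16, edgeR adjusted p = 0.0349). Tmem40 had 1.49, 1.44 and 1.45 CPM in DMSO and 2.62 and 3.06 in MM401 (0.96 ± 0.19, edgeR adjusted p = 0.0492). For Ahrr, Camk1g and Tmem40 the 3 DMSO libraries sat close together, so that replicate 1 did not stand between the groups.

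**Figure D1:**
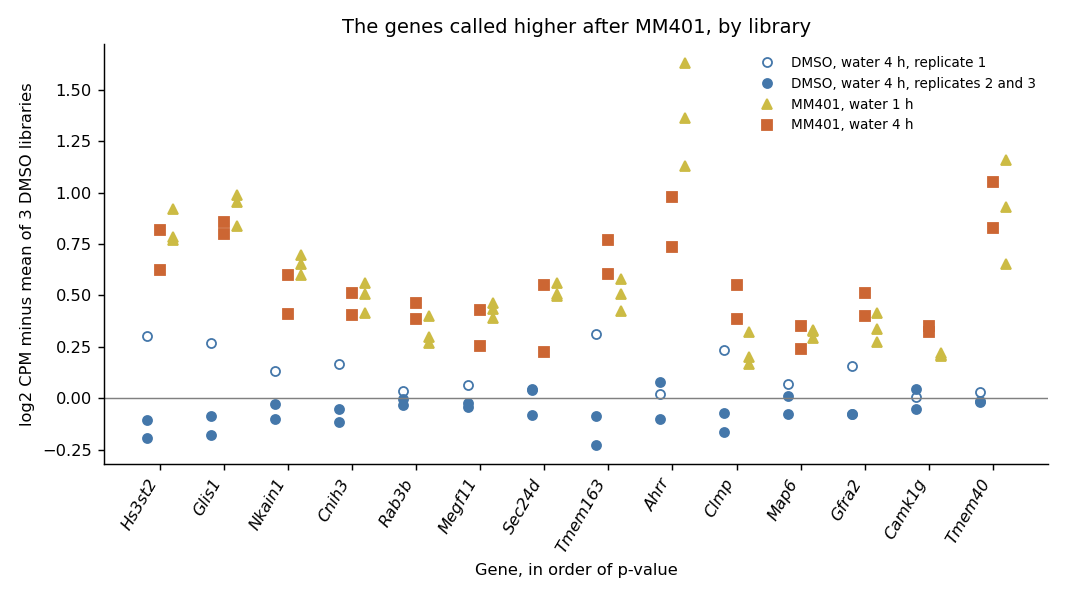
Points give log2 CPM of each library minus the mean of the 3 DMSO libraries (y axis) for the 14 called genes (x axis, in order of p-value). Open circles are DMSO replicate 1, filled circles DMSO replicates 2 and 3, squares MM401 with water for 4 h and triangles MM401 with water for 1 h. Both 4 h MM401 libraries lie above all DMSO libraries in each gene, and DMSO replicate 1 is the highest DMSO library in 12 of 14.

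Both MM401 libraries lay above all 3 DMSO libraries in 1965 of the tested genes (11.6%) and below them in 2452 (14.5%), so that the non-overlap of the 14 is shared by many genes that were not called. The 3 libraries of MM401 with water for 1 h, which no call used but which shared the model, lay above all 3 DMSO libraries in 13 of the 14, against 13.2% of all tested genes. Ahrr had 4.56, 3.22 and 3.78 CPM in them and Hs3st2 178, 160 and 162 CPM. These values are set against the same DMSO libraries at 4 h, so they share controls and differ in time, and no DMSO library with water for 1 h was analysed here. The 14 genes were long: 23.9 to 324 kb with a median of 93.9 kb, against 23.1 kb over all tested genes, and 5 of the 14 were at least 100 kb.

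All 14 stayed higher under each alternative fit that tested them, but the calls did not. Without DMSO replicate 2, DMSO replicate 3 or MM401 replicate 2 the edgeR test called 0 genes (1411, 1206 and 1168 at an unadjusted p under 0.05), without MM401 replicate 1 it called 6, of which 3 were among the 14, and without DMSO replicate 1 it called 1272, the 14 included. With each library corrected for its trend with gene length, 13 genes were called, 11 of them among the 14. Megf11 (0.23, edgeR adjusted p = 0.133), Sec24d (0.34, edgeR adjusted p = 0.056) and Ahrr (0.83, edgeR adjusted p = 0.0515) were then not called. Adjusted p of Hs3st2 ran from 1.66e-06 to 0.522 over its 20 alternative fits and was under 0.05 in 14 of them. That of Ahrr ran from 0.00105 to 0.522 and was under 0.05 in 11 of 20.

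The MLL1 complex and activity genes were followed whatever their result. None of Kmt2a, Wdr5 and Men1 was called. Kmt2a had 205, 190 and 174 CPM in DMSO and 199 and 211 in MM401 (0.11 ± 0.08, edgeR adjusted p = 0.537), so the groups overlapped. Wdr5 had 20.2, 20.2 and 19.5 CPM in DMSO and 19.8 and 21.3 in MM401 (0.04 ± 0.07), and Men1, which encodes the menin subunit, had 4.46, 5.55 and 5.24 and 5.08 and 5.5 (0.05 ± 0.11). Of the 21 listed genes of H3K4 methyltransferase complexes 0 were called by the edgeR test (2 were higher at an unadjusted p under 0.05, against 6.35% of all genes). A positive fold change was seen in 14, and the list had a median log2 fold change of 0.05. Without DMSO replicate 1, 1 was called higher and 1 lower, against 4.43% and 3.07% of all genes. These were Tasp1, the protease that cleaves MLL1, at 0.38 ± 0.08 (edgeR adjusted p = 0.0098), and Bod1 at -0.36 ± 0.11 (edgeR adjusted p = 0.0411). After length correction of that fit Tasp1 was at 0.23 (edgeR adjusted p = 0.0195) and Bod1, at -0.17, was not called (edgeR adjusted p = 0.364). The summed CPM of the 21 genes was 1447 to 1606 in DMSO and 1563 to 1615 in MM401. The 7 H3K4 demethylase genes had a median of 0.05 and 0 calls, and the 10 tested homeobox genes tied to MLL1 also 0.05 and 0 calls, while others, among them Hoxa5, Hoxa7, Hoxa9, Hoxa10, Hoxb4, Hoxc8 and Dlx1, did not pass the filter on low counts. Without DMSO replicate 1, 1 member of the last list, Eya1, a transcriptional cofactor, was called lower (-0.30 ± 0.07).

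Among activity-induced genes, Fos had 29.5, 40.6 and 50.7 CPM in DMSO and 29.6 and 39.1 in MM401 (-0.23 ± 0.19, edgeR adjusted p = 0.6). Npas4 had 31.3, 23.3 and 24.7 CPM in DMSO and 27.1 and 30.6 in MM401 (0.13 ± 0.19), and Arc 10.1, 9.23 and 12.2 and 8.11 and 12.1 (-0.06 ± 0.18). Bdnf, a neurotrophin, had 247, 214 and 200 CPM in DMSO and 231 and 273 in MM401 (0.19 ± 0.11, edgeR adjusted p = 0.455). In each of these genes the groups overlapped. Over the lists, 0 of 24 rapid and 0 of 22 delayed activity-induced genes were called, with medians of -0.12 and 0.00. After length correction these medians were 0.07 and 0.06. Without DMSO replicate 1, 1 rapid gene, Atf3, a stress-responsive transcription factor, was called lower (-0.35 ± 0.10), against 3.07% of all genes, and after length correction of that fit it was not (-0.24, edgeR adjusted p = 0.163).

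In the aryl hydrocarbon receptor list 1 of 11 tested genes was called, Ahrr, against 0.0826% of all genes, and the list's median was 0.03. At an unadjusted p under 0.05, 3 were higher and 1 lower, against 6.35% and 6.59% of all genes. Without DMSO replicate 1, 2 were called higher, Ahrr and Arnt2, and 1 lower, Fmo1, against 4.43% and 3.07% of all genes. Arnt2, a partner subunit of the receptor family, was at 0.33 ± 0.09 in that fit, and Fmo1, a flavin monooxygenase, at -0.66 ± 0.15. After length correction of that fit Arnt2, at 0.21, was not called (edgeR adjusted p = 0.189), while Ahrr and Fmo1 were. Cyp1b1, a target of the receptor that oxidises aromatic substrates, had 0.829, 1.16 and 1.58 CPM in DMSO and 1.72 and 1.65 in MM401 (0.48 ± 0.20, edgeR adjusted p = 0.327). All MM401 values were above all DMSO values but the DMSO libraries spread widely. Tiparp, a further target, had 111, 115 and 127 CPM in DMSO and 111 and 130 in MM401 (0.03 ± 0.09). Cyp1a1, Cyp1a2, Aldh3a1, Ugt1a6a and Fmo2 did not pass the filter.

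Fold changes depended on gene length. Genes under 10 kb had a median log2 fold change of -0.15, and the medians were -0.04 for 10 to 30 kb, 0.04 for 30 to 100 kb, 0.08 for 100 to 300 kb and 0.15 for 300 kb or more. With DMSO replicate 3 left out the medians were -0.10 under 10 kb and 0.08 at 300 kb or more, and with replicate 1 left out -0.21 and 0.27. The share of genes with a positive fold change went from 24.5% of 4479 genes under 10 kb to 84.8% of 538 genes of 300 kb or more. Across the 16959 genes, which are not independent replicates, the log2 fold change was 0.04 higher per doubling of length (Pearson r 0.284, Spearman rho 0.395).

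Single abundant genes did not all follow the length pattern. Rn45s, the ribosomal RNA precursor, had 9300, 11602 and 17410 CPM in DMSO and 10656 and 10633 in MM401; it is a repeated gene, so its counts are uncertain. Malat1, a nuclear non-coding RNA of 7 kb, had 9614, 8550 and 7633 CPM in DMSO and 11089 and 8714 in MM401, a positive fold change in the class whose median was negative. In the class from 10 to 30 kb, Ywhaz, a 14-3-3 protein, had 297, 335 and 310 CPM in DMSO and 291 and 317 in MM401, and Snhg11, a non-coding host gene, had 324, 278 and 206 and 299 and 270, so the groups overlapped in both. Meg3, a long non-coding RNA of 30.7 kb, had 1297, 790 and 645 CPM in DMSO and 1356 and 851 in MM401. In the class from 100 to 300 kb, Arpp21, a phosphoprotein of neurons, had 1797, 1304 and 1148 CPM in DMSO and 1806 and 1811 in MM401, and Map2, the dendritic microtubule protein, had 1646, 1510 and 1467 and 1630 and 1656. Celf2, an RNA-binding protein of 857 kb, had 7807, 5548 and 5089 CPM in DMSO and 7555 and 7141 in MM401. In Celf2 and Map2 the value of DMSO replicate 1 was at or above a value of MM401, while DMSO replicates 2 and 3 were lower. None of these genes was called by the edgeR test with all 5 libraries.

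**Figure D2:**
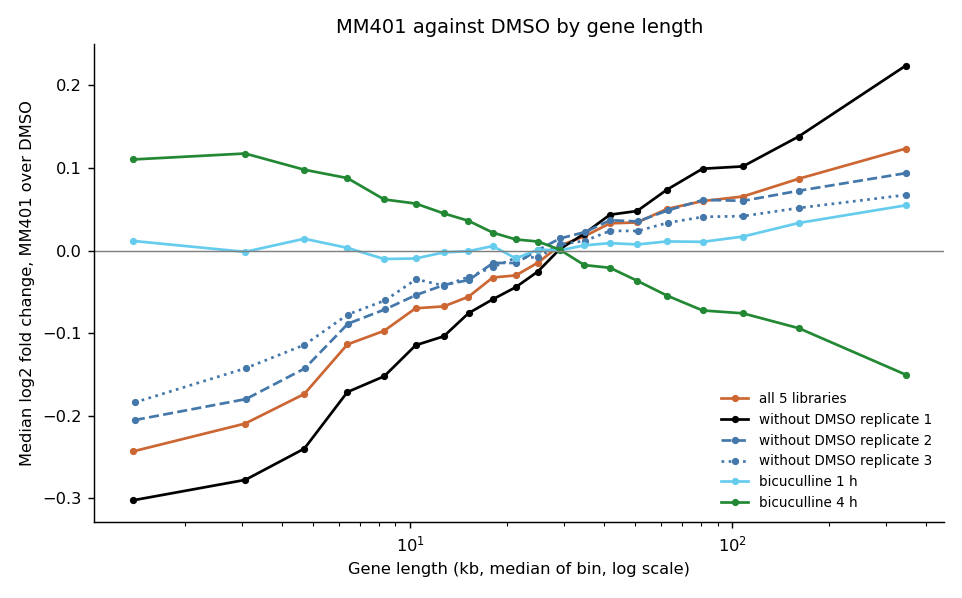
Lines give the median log2 fold change of MM401 over DMSO (y axis) in 20 bins of tested genes ordered by length (x axis, kb, log scale). In water with all 5 libraries the medians go from -0.24 in the shortest bin to 0.12 in the longest. Without DMSO replicate 1 they go from -0.30 to 0.22, without replicate 2 from -0.21 to 0.09 and without replicate 3 from -0.18 to 0.07. In bicuculline at 1 h they go from 0.01 to 0.05 and in bicuculline at 4 h from 0.11 to -0.15.

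By library, the length measure showed that DMSO replicate 1 sat with MM401. The slope of a library's log2 CPM deviation from the gene's mean over 20 libraries, per doubling of gene length, was -0.0011 in DMSO replicate 1, -0.0485 in replicate 2 and -0.0594 in replicate 3, and -0.0026 and 0.0087 in the MM401 libraries. The groups overlapped through replicate 1. The difference of means was 0.0394, which was not significant (exact two-sided permutation p = 0.3 over 10 splits, which cannot go below 0.1), and it was 0.0572, 0.0334 and 0.0279 with DMSO replicate 1, 2 or 3 left out. Genes of at least 100 kb took 62.2%, 58% and 56.9% of all counts in the DMSO libraries and 61.4% and 61.3% in the MM401 libraries. The difference was 2.29 percentage points (exact permutation p = 0.4), and it was 3.86, 1.76 and 1.25 with DMSO replicate 1, 2 or 3 left out. Genes under 10 kb held 4.18%, 5.26% and 5.93% of counts in DMSO and 4.59% and 4.26% in MM401.

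**Figure D3:**
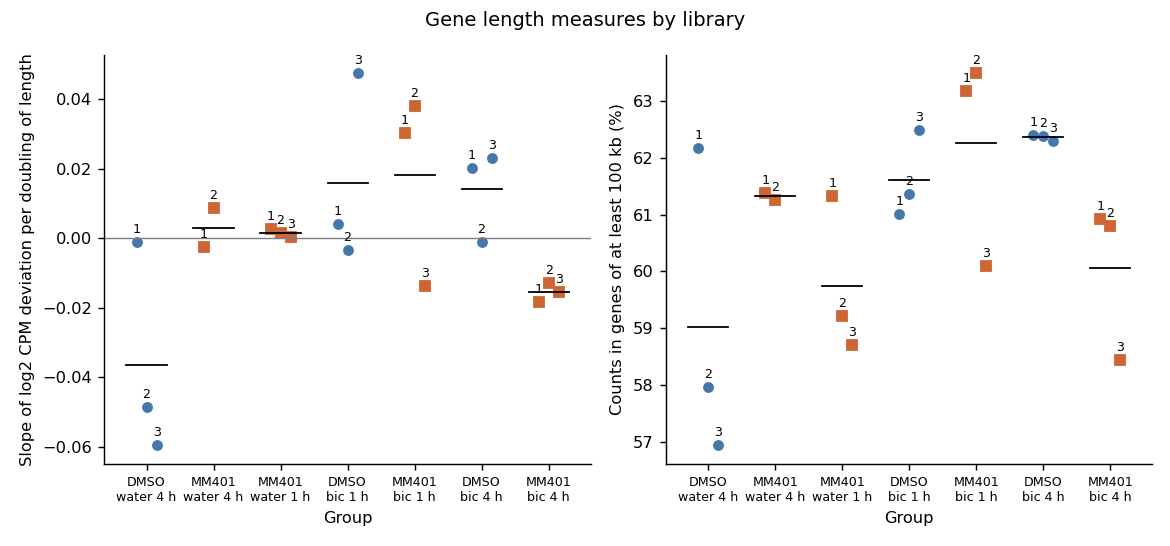
Each point is a library, labelled by replicate number, and each bar a group mean; the left y axis is the slope of log2 CPM deviation per doubling of gene length and the right y axis the percent of a library's counts that fell in genes of 100 kb or longer. Among resting libraries DMSO replicate 1, at -0.0011 and 62.2%, sits with the MM401 libraries and apart from DMSO replicates 2 and 3.

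Without DMSO replicate 1, 1272 of 16958 tested genes were called, 751 higher (4.43%) and 521 lower (3.07%). Higher genes had a median length of 124 kb and lower genes 15.3 kb. Of the higher genes 58.7% were at least 100 kb, against 13.9% of all tested genes, and of the lower genes 67.2% were under 30 kb, against 58.5%. By class, 32.5% of genes of 300 kb or more were called higher and 2.23% lower. Among genes under 10 kb 0.112% were called higher and 4.36% lower. After length correction of that fit 10% of genes of 300 kb or more were called higher and 8.18% lower. Under 10 kb these shares were 0.715% and 0.469%. Long genes were thus called more often in both directions, and what part of the length of called genes reflects this was not tested. Most changes were small: the median size was 0.38 for higher and 0.50 for lower genes on the log2 scale, and 16 and 20 genes reached 2-fold.

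DMSO replicate 1, which that fit did not use, was placed on a scale on which the mean of DMSO replicates 2 and 3 is 0 and the mean of the MM401 libraries is 1. Over the 1272 genes its median position was 0.86 (quartiles 0.617 and 1.05), and in 1078 genes (84.7%) it was nearer to MM401 than to the other DMSO libraries. The median was 0.872 for higher and 0.825 for lower genes. The genes were called for the distance between the ends of this scale. Such a choice by itself tends to place a left-out DMSO library above 0. No share over all tested genes is given, so the positions are a description. The 3 libraries of MM401 with water for 1 h had medians of 0.953, 0.709 and 0.639 on this scale. Correction of each library for its trend with gene length left 811 calls without replicate 1 (429 higher, 382 lower), of which 621 were among the 1272, and the median position of replicate 1 over these was 0.81. Chi-square per degree of freedom between libraries was 39.6 for DMSO replicates 1 and 2, 67.9 for 1 and 3, 16.4 for 2 and 3 and 7.9 for the MM401 libraries, all above sampling noise. Sample weights estimated by limma-voom were 0.342, 3.97 and 0.582 for DMSO replicates 1, 2 and 3 and 1.23 and 1.24 for MM401. Whether replicate 1 departs from its group through the culture, the treatment or the library was not tested.

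Genes with the largest fold changes in that fit, at 2 CPM or more in the higher group and with no overlap of MM401 with any DMSO library, included Corin, a membrane protease, with 2.43, 1.47 and 1.41 CPM in DMSO and 2.76 and 3.13 in MM401. Its log2 fold change was 1.03 ± 0.18 without replicate 1 (edgeR adjusted p = 0.00305) and 0.76 ± 0.20 with it (edgeR adjusted p = 0.138). Sec16b, which organises endoplasmic reticulum exit sites, had 9.05, 7.34 and 4.81 CPM in DMSO and 11 and 13.1 in MM401. Skap1, an adaptor of T cell receptor signalling, had 2.3, 1.7 and 1.55 CPM in DMSO and 2.89 and 3.27 in MM401. The other higher genes named by this rule were D5Ertd615e and Tspear, with Glis1, Ahrr and Tmem40 again. Replicate 1 was nearer to MM401 than to the mean of DMSO replicates 2 and 3 in Corin, D5Ertd615e, Sec16b and Skap1, by the measure given above (positions 0.735, 0.789, 0.597 and 0.545), and not in Tspear (0.473).

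Lower by the same rule was Rtp4. This interferon-induced chaperone of receptors had 3.61, 2.78 and 4.5 CPM in DMSO and 1.77 and 0.877 in MM401, a log2 fold change of -1.46 ± 0.41 without replicate 1 (edgeR adjusted p = 0.0441) and -1.45 ± 0.37 with it (edgeR adjusted p = 0.139). Oas1b, of the oligoadenylate synthetase family, had 3.41, 3.35 and 3.76 CPM in DMSO and 2.32 and 1.34 in MM401. Slfn9, of the Schlafen family, had 2.23, 2.49 and 2.84 CPM in DMSO and 1.54 and 0.963 in MM401. In these 3 genes DMSO replicate 1 lay nearer to the other DMSO libraries (positions -0.0196, 0.0588 and 0.227); the rule asks that no DMSO library overlap MM401, so it bears on where replicate 1 lies. The linker histone genes Hist1h1c and Hist1h1d had 4.88, 8.02 and 9.79 and 4.68, 5.48 and 5.99 CPM in DMSO, and 4 and 4.52 and 3.22 and 2.51 in MM401. The other lower genes of the rule were Pdzph1, Nat2 and Mpst. Replicate 1 was nearer to MM401 in Hist1h1c, Mpst and Pdzph1 (positions 0.813, 0.699 and 0.593), and nearer to the other DMSO libraries in Nat2 and Hist1h1d (0.492 and 0.289). After length correction of that fit Rtp4, Oas1b and Hist1h1d were not called (edgeR adjusted p = 0.0993, 0.0689 and 0.178), while the other genes that this rule named in either direction were.

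Gene lists differed in whether replicate 1 lay with MM401 or with DMSO. Of 41 long neuronal adhesion and synapse genes (median length 1098 kb) 40 had a positive fold change with a median of 0.19. By the edgeR test 0 were called with all 5 libraries (1 was higher at an unadjusted p under 0.05, against 6.35% of all genes). Without replicate 1, 18 were called higher and 0 lower, against 4.43% of all genes, and the median was 0.36. Csmd1 had 5814, 3970 and 3659 CPM in DMSO and 5758 and 5514 in MM401, and Cdh12, a cadherin, 504, 325 and 288 and 505 and 498. In both, replicate 1 was within or above the range of the MM401 libraries. After length correction, still without replicate 1, 2 were called higher and 1 lower, against 2.53% and 2.25% of all genes in that fit. The summed CPM of the list was 79877, 58011 and 54571 in DMSO and 75904 and 72380 in MM401.

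Short housekeeping genes went the other way. Of 72 tested cytosolic ribosomal protein genes (median length 3.14 kb) 67 had a negative fold change, with a median of -0.25, or -0.02 after length correction. Of these 0 were called with all 5 libraries (25 were lower at an unadjusted p under 0.05, against 6.59% of all genes), and 19 were called lower without replicate 1, against 3.07% of all genes, and 0 after length correction. Rps24 had 19.1, 20.5 and 22.7 CPM in DMSO and 17.4 and 16.4 in MM401. Of 20 unfolded protein response genes 19 were negative, with a median of -0.21, and 1, the transcription factor gene Atf4, was called lower without replicate 1, a share near the 3.07% of all genes, and 0 after length correction of that fit (Atf4 -0.14, edgeR adjusted p = 0.321).

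In astrocyte markers replicate 1 lay with MM401 too. All 10 had a negative fold change, with a median of -0.40, and 0 were called with all 5 libraries (6 were lower at an unadjusted p under 0.05, against 6.59% of all genes). Without replicate 1 the median was -0.54 and 6 were called lower, against 3.07% of all genes: Aqp4, Slc1a2, Slc1a3, Gja1, Sox9 and Fgfr3. Gja1, the astrocyte gap junction protein connexin 43, had 20.6, 36.5 and 33.7 CPM in DMSO and 23.3 and 18.3 in MM401. Slc1a2, the main glutamate transporter of astrocytes, had 667, 823 and 912 CPM in DMSO and 684 and 666 in MM401. After length correction of that fit 4 of the 6 were called lower, against 2.25% of all genes. Summed CPM of the 10 markers was 1158, 1537 and 1655 in DMSO replicates 1, 2 and 3 and 1242 and 1122 in MM401, while that of 9 excitatory neuron markers was 767 to 932 in DMSO and 934 to 943 in MM401. In bulk cultures fewer astrocytes and less astrocyte RNA per cell cannot be told apart, and the part of these markers in the other results was not tested. Of the 10 markers of cycling cells, all negative with a median of -0.33, 7 were lower at an unadjusted p under 0.05, against 6.59% of all genes, and 3 were called lower without replicate 1, against 3.07%. Length correction of that fit left 0 of these calls, with a median of -0.40.

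In the 2 lists of lowest median fold change, the median and the summed CPM of replicate 1 lay with the other DMSO libraries. Not every member did: in Hist1h1c replicate 1, at 4.88 CPM, was near the MM401 level. All 16 tested replication-dependent histone genes had a negative fold change, with a median of -0.47, and their summed CPM was 69.1, 62.2 and 76 in DMSO and 54.3 and 42 in MM401. Of 22 immediate interferon and cytokine genes 20 were negative, with a median of -0.44 and summed CPM of 111, 112 and 137 in DMSO and 87.3 and 68.2 in MM401. The groups did not overlap in either sum. The same held in other lists in both directions, such as cholesterol synthesis genes (lower with MM401) and collagen and matrix genes (higher). The MM401 libraries differed from each other, with list medians of -0.30 and -0.71 for histone genes and -0.35 and -0.79 for interferon genes relative to the DMSO mean. In these lists 4 histone and 9 interferon genes had a mean under 1 CPM, so the medians rest in part on low counts. In each list 0 genes were called by the edgeR test with all 5 libraries. At an unadjusted p under 0.05, 5 histone and 12 interferon genes were lower, against 6.59% of all genes. Without replicate 1, 3 were called lower in each list, against 3.07% of all genes (Irf1, Nfkbia and Tnfaip3 in the interferon list). After length correction without replicate 1 the medians were -0.17 for histone genes and -0.32 for interferon genes, with 1 histone gene and 0 interferon genes called lower, against 2.25% of all genes. Histone and ribosomal protein genes have near-identical copies, so counts of single members are uncertain.

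The other lists had 0 calls by the edgeR test with all 5 libraries and medians from -0.21 to 0.10. At an unadjusted p under 0.05 they had at most 4 members in either direction, against 6.35% of all genes higher and 6.59% lower. Among the smaller lists, 3 of 9 excitatory and 2 of 9 pan-neuronal markers were higher, and 3 of 11 oligodendrocyte lineage markers lower, at that p. Without replicate 1 none of them had more than 3 calls in either direction, against 4.43% of all genes called higher and 3.07% lower. Of 30 synaptic scaling genes 22 were positive, with a median of 0.07, and Grip2, a scaffold of AMPA receptors, was called higher without replicate 1 together with Gria4, an AMPA receptor subunit. After length correction of that fit Gria4, at 0.15, was not called (edgeR adjusted p = 0.322) and Grip2 was. Grip2 had 17.2, 13.5 and 12.3 CPM in DMSO and 19.4 and 20.5 in MM401. Of 17 NRF2 oxidative stress genes 16 were negative, with a median of -0.12, and Hmox1, heme oxygenase 1, was the 1 called lower without replicate 1. It had 6.54, 9.58 and 10.5 CPM in DMSO and 6.55 and 6.55 in MM401, so that replicate 1 was at the MM401 level. Of 25 cholesterol synthesis genes 20 were negative, with a median of -0.05, and 3 were called lower without replicate 1 (Hmgcs1, Srebf1 and Insig1). After length correction of that fit Srebf1 alone was called (edgeR adjusted p = 0.0459), with 0.0729 for Hmgcs1 and 0.433 for Insig1. Medians were -0.10 for 15 heat shock and chaperone genes, -0.11 for 20 p53 targets, 0.05 for 31 collagen and matrix genes, 0.01 for 22 histone deacetylase and polycomb genes and 0.05 for 30 genes of RNA polymerase II elongation. Without replicate 1 they were -0.11, -0.15, 0.08, -0.01 and 0.06 in that order, and -0.24 for NRF2 and -0.09 for cholesterol synthesis genes. Among cell type markers, medians were 0.10 for excitatory neurons, 0.09 for all neurons, -0.21 for inhibitory neurons, -0.12 for the oligodendrocyte lineage, -0.10 for microglia, -0.05 for endothelial cells and -0.12 for mural cells and fibroblasts. Without replicate 1 the marker medians were 0.17, 0.14, -0.32, -0.06, -0.18, -0.02 and 0.06 in that order, so the last changed sign. Markers of microglia summed to 66.1 to 72.3 CPM in DMSO and 58.2 to 65.1 in MM401.

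**Figure D4:**
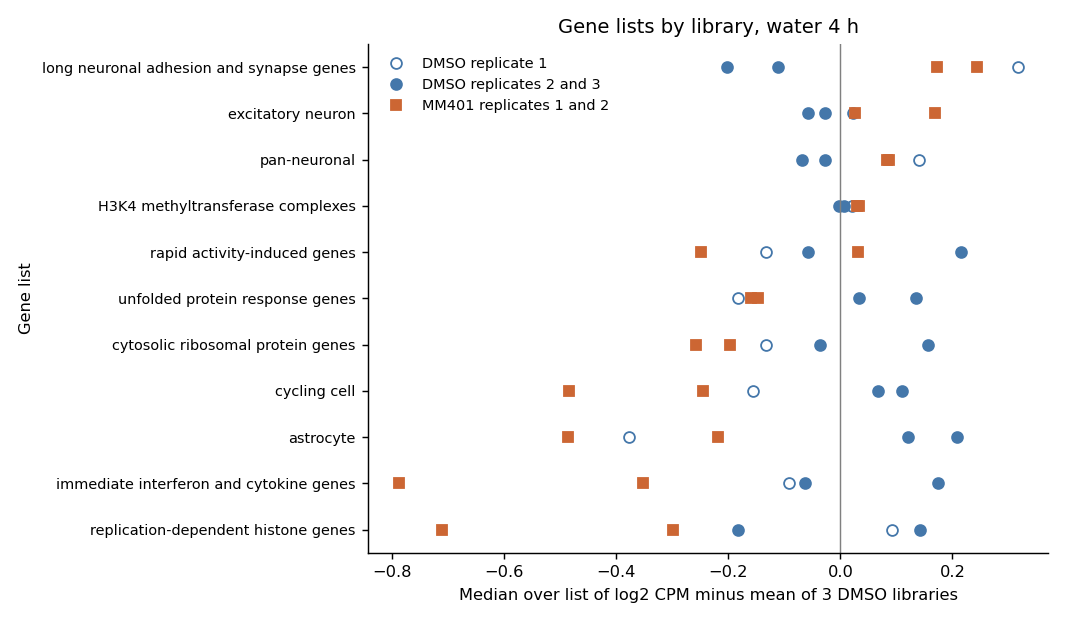
Points give, for each gene list (y axis) and each of the 5 resting libraries, the median over the list of log2 CPM minus the mean of the 3 DMSO libraries (x axis). DMSO replicate 1 (open circles) is at 0.32 for long neuronal genes and -0.38 for astrocyte markers, near the MM401 squares, but at 0.09 for histone genes, whose MM401 medians are -0.30 and -0.71.

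In bicuculline, which blocks GABA-A receptors and raises network activity, the fold changes of the 14 genes were mostly near 0. At 1 h in bicuculline 9 of the 14 had a positive fold change, with a median of 0.04, and 2 were higher at an unadjusted p under 0.05 (1.54% of all genes were). By the edgeR test 1 of the 14, Ahrr, was called at 1 h, and it was the only gene called there (0.0059% of genes). At 4 h in bicuculline 10 of the 14 were positive, with a median of 0.05, and 1 was higher at an unadjusted p under 0.05 (2.75% of all genes). No gene was called at 4 h by edgeR (1309 at an unadjusted p under 0.05), and DESeq2 called 7. These comparisons use 3 MM401 and 3 DMSO libraries each and share none with the resting comparison, though all libraries share the model.

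Ahrr had means of 1.72 ± 0.10 CPM in DMSO and 3.58 ± 0.55 in MM401 (SD, n = 3) in bicuculline at 1 h (log2 fold change 1.07, edgeR adjusted p = 0.00302), and 2.04 ± 0.12 and 2.85 ± 0.17 CPM at 4 h (0.48). The Cyp1b1 fold change was 0.95 at 1 h and 0.83 at 4 h in bicuculline, neither called. Hs3st2 had 175 ± 14.8 CPM in DMSO and 185 ± 3.87 in MM401 at 1 h in bicuculline, and 198 ± 7.47 and 207 ± 11.1 at 4 h, all above its 95.2 ± 18.1 in DMSO with water. The test of the MM401 effect in water minus that in bicuculline at 4 h called 0 genes by edgeR (2552 at an unadjusted p under 0.05). DESeq2 called 436 genes. Adjusted p of the 14 ran from 0.179 to 0.383 by edgeR; as these genes were chosen for their rise in the same resting libraries, a larger effect in water was largely fixed by the choice, and nothing is read from its direction.

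**Figure D5:**
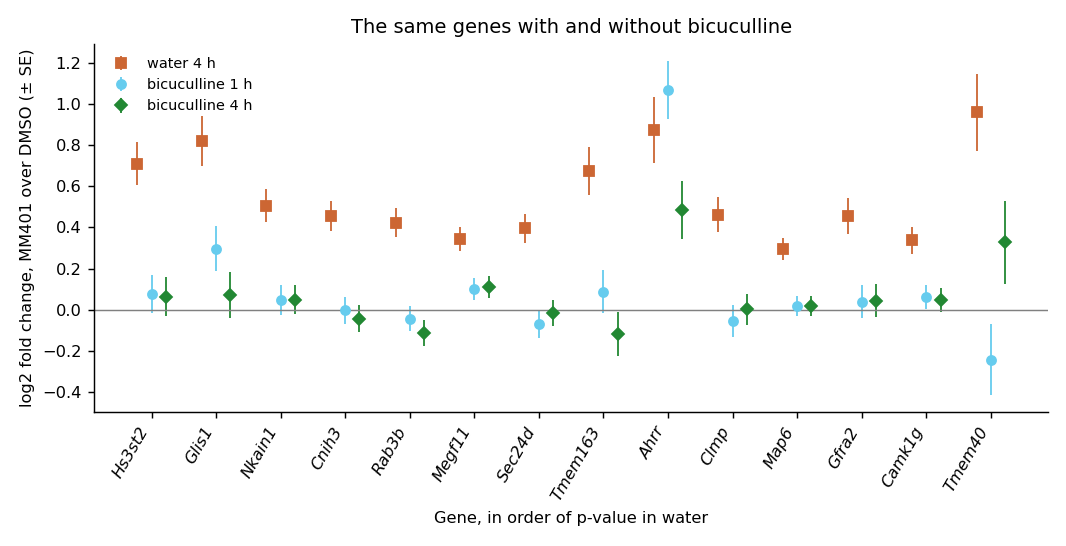
Points give the log2 fold change of MM401 over DMSO with its SE (y axis) for the 14 called genes (x axis) in water at 4 h (squares), bicuculline at 1 h (circles) and bicuculline at 4 h (diamonds). The resting values run from 0.29 to 0.96, while those in bicuculline have medians of 0.04 and 0.05, with Ahrr at 1.07 in bicuculline at 1 h.

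The length pattern was also compared between conditions. In bicuculline at 4 h the median log2 fold change was 0.09 for genes under 10 kb and -0.17 for genes of 300 kb or more, the opposite order to water. The slope per doubling of length was 0.0142 ± 0.0132 in DMSO and -0.0155 ± 0.0028 in MM401 (SD, n = 3), a difference of -0.0297 (exact two-sided permutation p = 0.1, the smallest that 20 splits can give). At 1 h in bicuculline it was 0.0022 (exact permutation p = 1). The difference in water minus that in bicuculline at 4 h was 0.0691 (exact two-sided permutation p = 0.03 over 200 splits of labels within each condition). Leaving out a resting library in turn gave 0.0576 to 0.0867, with an exact permutation p of at most 0.0333 except 0.05 without MM401 replicate 2. This test of the difference was added after the values in each condition were seen. As labels were shuffled within each condition, its p is against no MM401 effect in either condition. A small p can come from 1 condition alone, so it does not decide whether the conditions differ.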

How the data were processed

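Bromouridine-labelled RNA was sequenced as 150 bp paired-end reads, per the labels' protocols. Values were raw counts per gene over the whole gene span, made by the authors with featureCounts on mm10, per the file headers. The submitters' processing notes also name Bowtie2, UMI-tools, deepTools and DESeq2, with no role. Versions, the use of strand and the annotation release are not given in the sources used here. The table has 24984 genes, of which 412 have more than 1 position and were kept as deposited.

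Counts of 20 libraries in 7 groups, all but the shallow library, were fitted in R 4.3.3 with edgeR 4.0.16 (TMM, filterByExpr with minimum count 10 and total 15, robust quasi-likelihood), and MM401 was compared with DMSO by contrast. The common biological coefficient of variation was 8.77% and SEs of the resting log2 fold changes had a median of 0.125. DESeq2 1.42.0 and limma 3.58.1 (voom with sample quality weights, log2 CPM) were alternatives, as were scaling, filters, length correction (loess with span 0.5 on log2 length) and leaving out libraries. Single values per library (log2 CPM with prior count 2) were compared by exact permutation. On simulated data for the resting comparison (16777 genes), the edgeR fit recovered 80 of 100 genes changed 1.5-fold and 96 of 100 changed 2-fold, with 9 false calls. The simulated libraries were independent draws around the same mean per gene, and genes of low abundance were not among those changed. They had no trend with gene length and no library that departs from its group, so these rates may not hold for the real libraries.

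Genes named were all those called, up to 8 per direction with the largest fold change among those called without DMSO replicate 1, 10 chosen genes of MLL1, activity and aryl hydrocarbon receptor function, the 2 most abundant genes of known role per length class, and list members called in either fit. Members and lists were chosen with earlier results of these data known. The main fit did not pair libraries by replicate number. Same-numbered libraries had deviation correlations of 0.0624 and 0.0142, which cannot exclude a shared culture preparation. The labels do not state one, but the sample titles number all groups of a replicate in a run before the next replicate. Some genes that the rule named are not reported here. Promoters are RefSeq sequences. Figures were drawn with matplotlib.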

Additional observations from a re-analysis of the deposited data

Results flagged for a closer look

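The dependence on gene length had opposite signs in water and in bicuculline at 4 h. The slope of log2 CPM on log2 gene length, MM401 minus DMSO, was higher in water than in bicuculline at 4 h by 0.0691 per doubling of length (exact two-sided permutation p = 0.03, 200 splits). It was positive in water (0.0394) and negative in bicuculline (-0.0297), while no single gene was called for the same difference by edgeR with all libraries. The permutation p is against no MM401 effect in either condition, so it does not decide whether the conditions differ.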

How the results depend on the processing

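With all other choices kept, the count of genes called in water at 4 h was 0 with all 21 libraries, with the 5 resting libraries alone and with the 8 deep water libraries alone, 4 with total counts only, 162 with DESeq2, 2978 with limma-voom sample weights and 811 with length correction and DMSO replicate 1 left out, and leaving out a replicate gave 0 to 1272. It was between 13 and 21 under the other alternatives, the replicate block included (19 calls, 17 higher), and the 13 under length correction held 11 of the 14. For bicuculline at 1 h, against 1 call, DESeq2 gave 14, a filter of 1 CPM in all libraries 2, the replicate block 4, length correction 5 and both together 8, and at 4 h DESeq2 gave 7 against 0. The water-minus-bicuculline count of 0 became 0 to 1551 with a replicate left out, 436 with DESeq2, 2069 with limma-voom weights and 341 with length correction without DMSO replicate 1. The gene length slope was 0.234 with all 21 libraries and 0.0255 with no filter beyond 1 count in total, against 0.0394. The slope difference between conditions was 0.0576 to 0.0867 with a replicate left out.

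Signs changed for named genes that were not called with all 5 libraries, and the cause was not tested. With all 21 libraries, the log2 fold change was -0.056 for Kmt2a, -0.127 for Tiparp, -0.361 for Malat1, -0.14 for Meg3, -0.181 for Snap25, -0.165 for Map2, -0.0366 for Nrxn3, -0.0148 for Dlg2, -0.0635 for Grid1, -0.0339 for Gpc6, -0.0221 for Rbfox1 and -0.0159 for Hdac9. With total counts only, the log2 fold change was -0.0458 for Wdr5, -0.0414 for Men1, -0.0584 for Tiparp and -0.0205 for Snap25. With limma-voom weights, the log2 fold change was -0.0433 for Men1 and 0.0505 for Arc. With length correction and the replicate block, the log2 fold change was 0.0246 for Fos, 0.15 for Arc, -0.00257 for Snap25 and -0.000192 for Map2. With length correction, the log2 fold change was 0.138 for Arc and -0.00531 for Map2. With length correction and DMSO replicate 1 left out, the log2 fold change was 0.192 for Arc, -0.0166 for Map2 and -0.0121 for Cdh13. Leaving out a replicate in turn gave -0.00293 to 0.0958 for Wdr5, -0.0289 to 0.131 for Men1, -0.361 to 0.204 for Arc, -0.0708 to 0.141 for Tiparp, -0.446 to 0.0252 for Rn45s, -0.101 to 0.0111 for Ywhaz, -0.0819 to 0.236 for Snhg11, -0.0993 to 0.621 for Meg3 and -0.0205 to 0.134 for Snap25. Over the named genes and alternatives, 2001 results kept direction and side of the threshold, 226 became called, 110 lost the call and 39 changed sign.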

Other observations

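In DMSO cultures without MM401, 10 of the 14 called genes also had all 3 libraries with bicuculline for 4 h above all 3 with water, against 24.6% of tested genes. They were Hs3st2, Nkain1, Rab3b, Megf11, Sec24d, Tmem163, Ahrr, Clmp, Map6 and Camk1g. Tmem163 had 33.1 ± 6.66 CPM in water and 65.3 ± 3.76 in bicuculline, and Sec24d 51.8 ± 2.51 and 97.7 ± 2.49 (SD, n = 3). Glis1 had 20 ± 3.39 and 20.5 ± 1.17 CPM. Tmem40 was below water in all 3 bicuculline libraries. The DMSO libraries with water are the same that entered the choice of the 14, so a low value in them would move both counts, and the share is given as a description.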
